A study of Rattus norvegicus with 12 samples.

Results

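The effect of Grin3a knockdown was examined in cultured rat hippocampal neurons whose firing had been silenced with tetrodotoxin (TTX), a blocker of voltage-gated sodium channels. The members are 6 of the 12 RNA-seq libraries of the study, chosen by their labels: 3 libraries with a Grin3a shRNA (KD_TTX) and 3 with the control vector (Ctrl_TTX), all in TTX. Neurons came from the hippocampi of male and female E18.5 embryos (E counts embryonic days) of CD (Sprague Dawley) IGS rats and were kept in neuron-enriched culture. They were infected with lentivirus on day 1 in vitro, given 1 µM TTX on day 5 and harvested for RNA on day 7, after 48 h in TTX. The knockdown virus carried an shRNA in the vector pLKO.1. The control was the empty pLKO.1 vector, although the control columns of the deposited table are named scr, so no control hairpin is described and effects of carrying any hairpin cannot be told apart from effects of losing Grin3a. The other 6 libraries had TTX removed for 6 h before harvest. The labels give replicate numbers 1 to 3 in each group but do not say whether these were separate cultures, and p-values here reflect how these libraries vary, which may be technical.

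NMDA receptors are glutamate-gated channels that admit calcium and couple synaptic activity to transcription in the nucleus. Most contain GluN1 and GluN2 subunits. Grin3a encodes GluN3A, a subunit prominent in young neurons that lowers calcium permeability and is known for restraining synapse maturation. In TTX, spike-driven synaptic input is removed, so this comparison gives the basal state of knockdown and control neurons before activity returns.

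The hairpin is shown because every difference below is a difference between cells with and without it. The target-strand sequence is given 5′ to 3′, and capitals mark the 7 bases whose complement would be the seed (bases 2 to 8) of a guide that is its exact complement.
Grin3a shRNA: gctccatgacaagTGGTACAa

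Expression was given by the authors as FPKM, fragments scaled to transcript length and library size, for 10730 genes, of which 10689 were tested. Differences below are knockdown minus control on the log2(FPKM + 1) scale, and values are listed in the order of replicates 1, 2 and 3. Read depth is unknown. The library Ctrl_TTX replicate 1 stood apart. Its Spearman correlation with the other TTX libraries was 0.876 to 0.945, against 0.94 to 0.993 among the other 5. It was the highest of the 6 libraries at 3764 genes and over 2 times the median of the other 5 at 1095 genes, where the other libraries had 18 to 381 such genes. It was also the only TTX library with no gene under 1 FPKM. Selecting the genes on that library would produce this trait, and whether that was done is not given in the sources used here. Same-numbered libraries deviated together from their group means, so they were also compared as pairs, and results are given with all 3 pairs and with pairs 2 and 3 alone.

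Grin3a was lower with the shRNA in every same-numbered pair. It measured 18.6, 18.2 and 23 FPKM in the control libraries and 9.3, 6.01 and 4.77 FPKM in the knockdown libraries. The groups did not overlap, and means were 19.9 ± 2.66 FPKM in the control group and 6.69 ± 2.34 FPKM in the knockdown group (SD, n = 3), which leaves 33.6% of the control level. The log2 difference was -1.48, with p = 0.1 in an exact permutation test (two-sided), a design that cannot go below 0.1. In the fit over 12 libraries its limma adjusted p was 0.936. In pairs 2 and 3 alone the mean difference was -1.76 ± 0.14 (SE; limma adjusted p = 0.00118). Grin3a lies at chr5:69420057-69564696 in the build rn5.

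The other NMDA receptor subunits were measured at lower contrast. Grin2b, the main GluN2 subunit of young forebrain neurons, measured 45.5, 37.8 and 39.1 FPKM in the control libraries and 32.3, 33.8 and 29.2 FPKM in the knockdown libraries. Grin2a, which becomes more prominent as neurons mature, measured 6.67, 6.9 and 4.39 FPKM with the shRNA against 6.97, 7.31 and 8.5 FPKM with the empty vector. Both had every knockdown library below every control library, with log2 differences of -0.35 and -0.31, but for Grin2a the gap lay mostly in replicate 3. After correction for gene length, described below, the differences were -0.21 and -0.18, and the Grin2a groups overlapped. Grin2d measured 2.65, 3.57 and 3.77 FPKM in the control libraries and 6.79, 4.7 and 4.12 FPKM in the knockdown libraries, with every knockdown library above control. Grin2c, near the detection level, measured 2.79, 1.28 and 1.42 FPKM with the shRNA against 1.1, 1.12 and 0.992 FPKM with the empty vector. Grin1, the obligatory subunit, overlapped between groups at 77.5, 53.5 and 53.4 FPKM in the control libraries and 64.3, 48.5 and 46 FPKM in the knockdown libraries. None of these other subunits passed a test.

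Across all genes, the fit over 12 libraries called 0 genes (0% of 10689) at a limma adjusted p below 0.05, and the smallest adjusted p was 0.936. At an unadjusted p below 0.05 there were 117 higher and 295 lower genes. Taking same-numbered libraries as 3 pairs also called 0 genes (0%), with a smallest limma adjusted p of 0.445 and 507 higher and 656 lower genes at an unadjusted p below 0.05. Described without a test, 421 genes (3.94%) had every knockdown library above every control library, and 845 (7.91%) had every one below. With 3 against 3 libraries such separation has p = 0.1 in an exact permutation test (two-sided). Many genes would therefore separate without any effect, and these counts are not read as an effect. In all 3 pairs, 2010 genes (18.8%) were higher and 2312 (21.6%) lower. Differences of at least 1.5-fold in each of the 3 pairs were rare, with 9 genes higher and 26 lower.

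Without replicate 1 the picture was different. Pairs 2 and 3 moved together, with a correlation of their differences across genes of 0.618, whereas pair 1 correlated with them at 0.103 and 0.155. These are correlations across genes, which are not independent replicates. Fitted alone, pairs 2 and 3 gave 523 higher (4.89%) and 807 lower genes (7.55%) at a limma adjusted p below 0.05. Of these, 18 were higher and 6 lower by at least 2-fold. This fit has 1 residual degree of freedom per gene and leans on the spread shared across genes, and without the pairing it called 0 genes. In pair 1, which it did not use, 64.1% of the higher genes were also higher and 57.9% of the lower genes also lower, where 49.4% of all genes were higher and 50.6% lower. All 3 pairs share a trend with gene length, described below, and these shares were not corrected for it. In the shortest of 4 equal groups of genes by length 8.72% were called higher, and in the longest 2.43%. Reading genes by this fit was chosen after values were seen, and its adjusted p-values do not allow for that choice. Leaving out replicate 2 instead called 16 higher and 12 lower genes, and leaving out replicate 3 called 0 and 1. Below, "called" refers to this fit of pairs 2 and 3, and single genes named by a mean alone give the mean of these pairs. Counts over gene lists are read against these shares over all genes tested, and a share near them says nothing about the list.

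**Figure D1:**
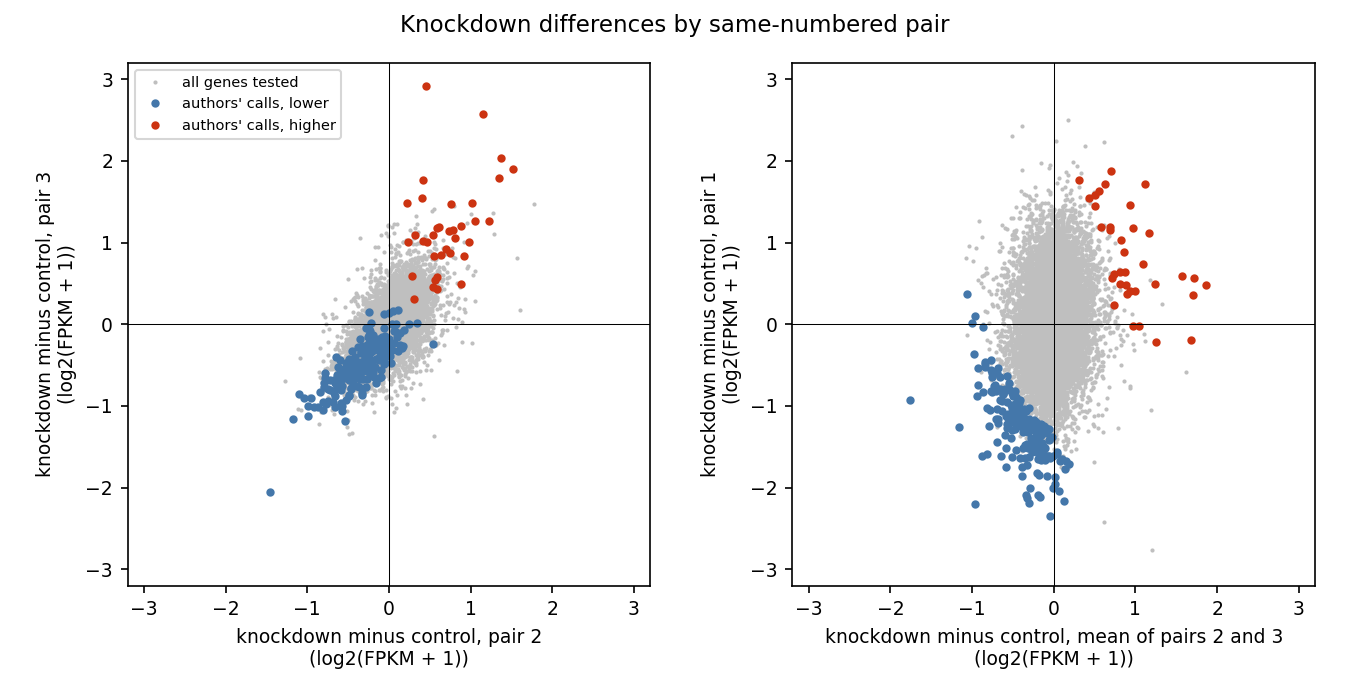
Knockdown minus control on the log2(FPKM + 1) scale, 1 grey point per gene; blue and red points are genes the authors marked lower or higher. Left, pair 3 (y) against pair 2 (x), where the cloud is tilted along the diagonal (r = 0.618); right, pair 1 (y) against the mean of pairs 2 and 3 (x), where many blue points lie far below 0 in pair 1 and near 0 on the x axis.

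The largest differences above control without overlap were those of an antioxidant enzyme, a neuropeptide precursor, a metallothionein (given below) and an inhibitor of growth signalling. Srxn1, which encodes sulfiredoxin, the enzyme that repairs over-oxidised peroxiredoxins, measured 6.47, 7.81 and 6.64 FPKM in the control libraries and 10.1, 24.3 and 27.6 FPKM in the knockdown libraries. Every knockdown library lay above every control library, and in pairs 2 and 3 Srxn1 rose by 1.71 ± 0.12 (SE; limma adjusted p = 0.00059). Vgf, a secreted neuropeptide precursor induced by neurotrophins and activity, measured 21, 24.7 and 34.5 FPKM with the shRNA against 5.67, 14.2 and 11.8 FPKM with the empty vector. It was higher in each pair, by 1.72, 0.76 and 1.47 on the log2 scale, with 1.12 ± 0.15 (SE; limma adjusted p = 0.00525) in pairs 2 and 3. Ddit4l, an inhibitor of mTORC1 signalling also called REDD2, measured 8.59, 7.53 and 4.12 FPKM in the control libraries and 13.5, 20.8 and 16.7 FPKM in the knockdown libraries, and all knockdown libraries exceeded control (1.57 ± 0.13 SE, limma adjusted p = 0.00116 in pairs 2 and 3).

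Further genes above control without overlap had varied roles. Angptl4, a secreted inhibitor of lipoprotein lipase, measured 22.8, 23.6 and 19.3 FPKM with the shRNA against 15.9, 9.55 and 7.44 FPKM with the empty vector. Cd99, a cell surface glycoprotein, measured 11.9, 32.2 and 28.2 FPKM in the control libraries and 34.7, 54.1 and 63.6 FPKM in the knockdown libraries. Fxyd7, a brain regulator of the sodium-potassium pump, measured 11.4, 8.13 and 8.15 FPKM with the shRNA against 2.37, 6.35 and 3.29 FPKM with the empty vector. All these genes rose in pairs 2 and 3, at limma adjusted p of 0.00116, 0.00398 and 0.0333. Fcgrt, the neonatal Fc receptor, Trappc6a, a subunit of a vesicle tethering complex, Ebi3, a cytokine subunit, and the sulfatase gene listed as Arse were also above control without overlap, by 0.86, 0.87, 0.86 and 0.92 on the log2 scale over 3 pairs. For Fcgrt, Trappc6a and Arse the pair 1 difference, 1.58, 1.62 and 1.64, was over 2 times that of the other pairs.

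Below control, the gene with the smallest p in both fits over all pairs was the one listed as RGD1311558. RefSeq now names it Shtn1, and it encodes shootin1, a protein known for axon outgrowth and neuronal polarity. It was named after its values were seen, because unnamed loci were passed over by the rule. RGD1311558 measured 167, 115 and 131 FPKM in the control libraries and 69.3, 50.4 and 58.3 FPKM in the knockdown libraries. The pair differences of -1.25, -1.17 and -1.16 were almost equal, and the knockdown mean was 43.1% of control, with -1.16 ± 0.08 (SE; limma adjusted p = 0.000691) in pairs 2 and 3. Whether the shRNA acts on this transcript directly was not tested, since no transcript sequences were used here.

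Of the other genes below control without overlap, several were clearly lower outside replicate 1 as well. Pcyox1, a lysosomal prenylcysteine oxidase, measured 152, 103 and 107 FPKM in the control libraries and 81.7, 55.9 and 52.7 FPKM in the knockdown libraries, with pair differences of -0.88, -0.86 and -1.01. Hsf2, a heat shock family transcription factor, measured 41.8, 37.4 and 48.2 FPKM with the shRNA against 94.8, 65.1 and 73.2 FPKM with the empty vector. Mapk8, the stress kinase JNK1, measured 105, 71.2 and 77.6 FPKM in the control libraries and 43.2, 45.8 and 53.5 FPKM in the knockdown libraries. Ugcg, the enzyme that makes glucosylceramide, measured 48.3, 46.4 and 47.7 FPKM with the shRNA against 149, 71.6 and 77.2 FPKM with the empty vector. Klf7, a zinc finger factor of neurite growth, measured 158, 64.9 and 61.2 FPKM in the control libraries and 57.7, 41.6 and 35.6 FPKM in the knockdown libraries. All these genes fell in pairs 2 and 3, at limma adjusted p from 0.00158 to 0.00662. In Ugcg and Klf7 the control value of replicate 1 was about 2 times or more that of replicates 2 and 3, and the pair 1 difference was the largest.

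In Top1, Pcnp and Ccdc34 most of the difference lay in replicate 1. Top1, DNA topoisomerase I, measured 125, 31.2 and 31.3 FPKM in the control libraries and 28.5, 24.5 and 24.5 FPKM in the knockdown libraries, a difference of -2.10 in pair 1 and -0.34 in pair 2. Pcnp and Ccdc34 had the same form, with pair 1 differences of -1.62 and -1.75 and means of -0.52 and -0.39 over the other pairs. Nkap, a transcriptional regulator, and Mtfr1, a mitochondrial protein, fell in pairs 2 and 3, with means of -0.79 and -0.52, and differed by -1.24 and -1.38 in pair 1.

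**Figure D2:**
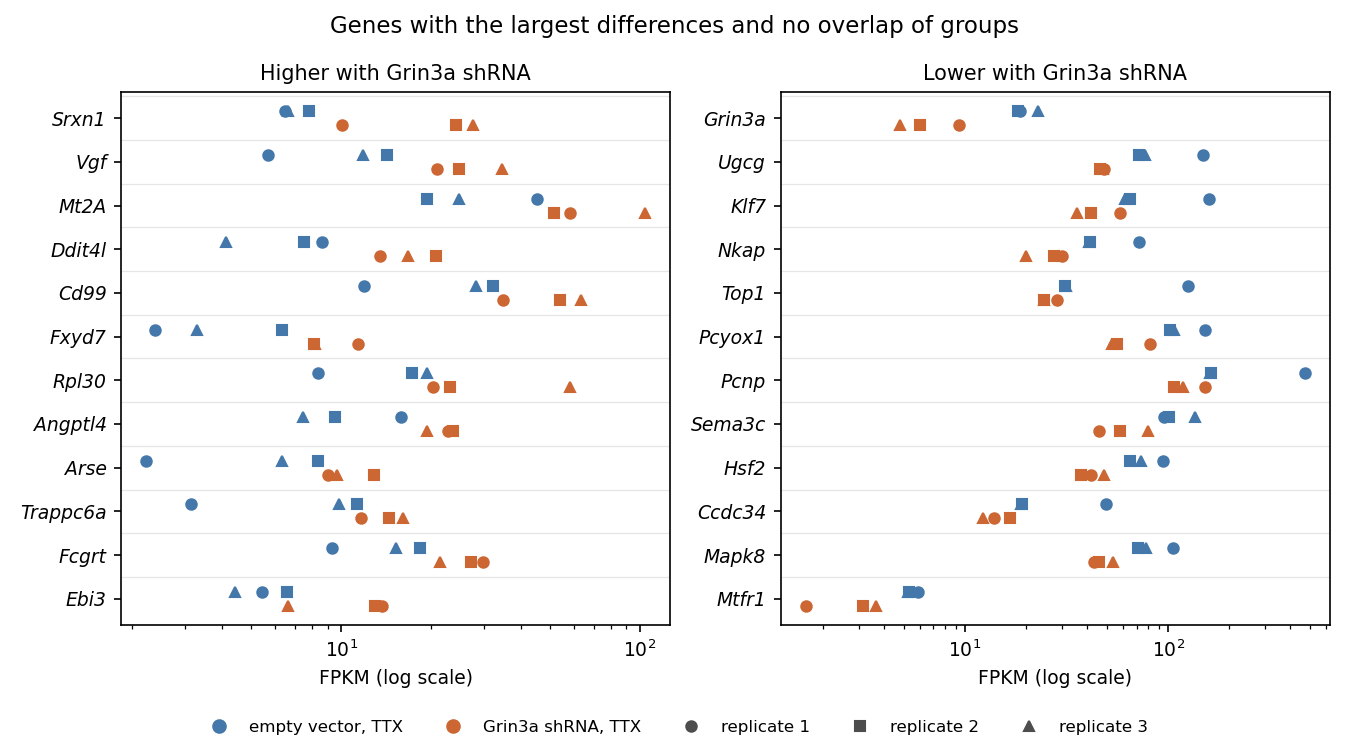
FPKM on a log axis in each of the 6 libraries, for the 12 genes in each direction with the largest difference among those whose groups did not overlap. Blue is the empty vector, orange the Grin3a shRNA, and marker shapes give the replicate; in Klf7, Top1 and Pcnp the blue circle of Ctrl_TTX replicate 1 lies far to the right of the other control libraries.

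A few genes of the antioxidant response controlled by NRF2 rose. Of 20 tested members, 5 rose in pairs 2 and 3 and 0 fell (over all genes 4.89% were called higher), and 4 were above control without overlap (3.94% over all genes). Nqo1, a quinone reductase, measured 25.9, 26.3 and 25.7 FPKM in the control libraries and 34.8, 46.8 and 54.6 FPKM in the knockdown libraries. Gstp1, a glutathione S-transferase, measured 169.9, 191 and 227 FPKM with the shRNA against 108, 117 and 119.5 FPKM with the empty vector. The groups were apart in both genes, with 0.93 ± 0.10 (SE; limma adjusted p = 0.00244) for Nqo1 and 0.81 ± 0.09 (SE; limma adjusted p = 0.00357) for Gstp1 in pairs 2 and 3. Hmox1, heme oxygenase, measured 48.9, 47 and 28.1 FPKM in the control libraries and 69.6, 72.7 and 44.5 FPKM in the knockdown libraries, and was higher within each pair although the groups overlapped. Gsta1 measured 11.9, 17.2 and 16.5 FPKM with the shRNA against 12.9, 8.37 and 6.4 FPKM with the empty vector, and in replicate 1 the knockdown library was the lower one. Gsta4, a further glutathione S-transferase, was above control without overlap (36.4, 37.1 and 33.3 FPKM in the control libraries and 49.8, 45.7 and 37.8 FPKM in the knockdown libraries) but was not called. The list's median was 0.08 on the log2 scale, and by pair -0.02, 0.20 and 0.18. Most of the other members were therefore near 0 or split between pairs. Glutathione S-transferases have close relatives, and how shared reads were counted is not given in the sources used here.

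Metallothioneins, small proteins that bind zinc and copper, showed large differences, although Mt1a and Mt2A are close copies whose shared reads could be split between them. Mt2A measured 45.3, 19.4 and 24.7 FPKM in the control libraries and 58.5, 51.6 and 104 FPKM in the knockdown libraries. All knockdown libraries were above all control libraries, and the rise in pairs 2 and 3 was 1.70 ± 0.14 (SE; limma adjusted p = 0.00118). After correction for gene length, described below, the Mt2A difference over 3 pairs went from 1.26 to 1.08, and its groups overlapped. Mt1a, which RefSeq now lists as Mt1, measured 149.6, 110.4 and 77.8 FPKM with the shRNA against 226, 31.5 and 27.5 FPKM with the empty vector. In pairs 2 and 3 it rose by 1.62 ± 0.10 (SE; limma adjusted p = 0.000588), but in replicate 1 control was the higher library. Mt3, the brain metallothionein, measured 271, 428 and 493 FPKM in the control libraries and 477, 494 and 836 FPKM in the knockdown libraries (0.48 ± 0.13 SE, limma adjusted p = 0.0472). Slc30a1, which exports zinc from the cell, measured 12.3, 10.2 and 9.68 FPKM with the shRNA against 16.5, 13.1 and 13.5 FPKM with the empty vector and fell in pairs 2 and 3 (-0.39 ± 0.10 SE, limma adjusted p = 0.0385). In all, 3 of the 7 tested members of the list were called higher and 1 lower, where 4.89% and 7.55% of all genes were. The listed genes are short (median 3.87 kb), and in the shortest of 4 equal groups of genes by length 8.72% were called higher.

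Promoters are shown for 4 genes that rose in pairs 2 and 3, from 250 bases before to 50 after the start, from RefSeq with the build GRCr8. Capitals mark matches on either strand to 1 motif per gene, and overlapping matches share capitals. The motifs were TGACNNNGC for Gstp1 (the core of the antioxidant response element), TGACGTCA for Vgf (the cyclic AMP response element) and TGCNCNC for Mt1 and Mt2A (a loose core of the metal response element). Among 27457 promoters, 12.2%, 1.91% and 50.1% hold at least 1 match to these motifs, and among the 8102 promoters of genes tested here 14.9%, 3.3% and 61.6% do. At least 5 matches to TGCNCNC are held by 0.652% of the 27457. Mt1 held 7 such matches and Mt2A held 5, while in Srxn1, Nqo1 and Ddit4l the letters TGACNNNGC were not in this window. A match is a description of the sequence and was not tested as a site.
Gstp1, chr1:210769656-210769955, minus strand: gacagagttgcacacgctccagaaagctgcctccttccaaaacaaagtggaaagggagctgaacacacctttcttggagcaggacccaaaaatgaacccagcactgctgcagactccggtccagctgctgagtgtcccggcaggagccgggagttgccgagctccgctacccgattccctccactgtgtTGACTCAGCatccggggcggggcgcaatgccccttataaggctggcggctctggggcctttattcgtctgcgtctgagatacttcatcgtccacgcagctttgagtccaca
Vgf, chr12:25276971-25277270, minus strand: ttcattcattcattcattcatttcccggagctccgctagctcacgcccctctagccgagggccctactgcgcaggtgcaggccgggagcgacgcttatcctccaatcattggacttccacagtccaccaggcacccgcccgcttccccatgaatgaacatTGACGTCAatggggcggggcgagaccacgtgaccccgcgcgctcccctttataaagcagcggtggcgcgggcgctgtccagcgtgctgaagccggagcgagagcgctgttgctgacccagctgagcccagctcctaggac
Mt1, chr19:10832926-10833225, minus strand: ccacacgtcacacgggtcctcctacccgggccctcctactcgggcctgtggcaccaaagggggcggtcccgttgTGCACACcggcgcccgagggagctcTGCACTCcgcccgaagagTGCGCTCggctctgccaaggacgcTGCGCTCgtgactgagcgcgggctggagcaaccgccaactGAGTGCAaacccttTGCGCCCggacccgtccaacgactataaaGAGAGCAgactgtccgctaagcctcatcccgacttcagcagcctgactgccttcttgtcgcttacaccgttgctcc
Mt2A, chr19:10838659-10838958, minus strand: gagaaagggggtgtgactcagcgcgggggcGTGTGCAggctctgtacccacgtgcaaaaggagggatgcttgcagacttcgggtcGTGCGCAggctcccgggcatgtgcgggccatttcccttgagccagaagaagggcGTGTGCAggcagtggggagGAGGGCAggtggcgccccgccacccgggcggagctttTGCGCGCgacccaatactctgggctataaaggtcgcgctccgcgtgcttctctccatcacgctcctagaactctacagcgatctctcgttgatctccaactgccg

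In the list for endoplasmic reticulum and integrated stress, 5 of 23 members rose in pairs 2 and 3 and 0 fell (21.7% higher, against 4.89% over all genes). Ddit3, the stress factor CHOP, measured 35.8, 86.5 and 73.1 FPKM in the control libraries and 31, 151 and 201 FPKM in the knockdown libraries, a rise of 1.12 ± 0.14 (SE; limma adjusted p = 0.00455). Hspa5, the chaperone BiP of the endoplasmic reticulum, measured 199.6, 513 and 661 FPKM with the shRNA against 260.3, 385 and 396 FPKM with the empty vector. Herpud1, Ppp1r15a and Dnajb9 rose by 0.58, 0.73 and 0.42, with roles in degradation from the endoplasmic reticulum, in reversing the translation block and as a co-chaperone. In replicate 1, Ddit3, Hspa5 and Dnajb9 were lower with the shRNA, and none of the 23 had groups without overlap. Atf3, a stress-induced factor of the activity list, measured 7.54, 10.3 and 8.74 FPKM in the control libraries and 6.33, 21.8 and 26.2 FPKM in the knockdown libraries and showed the same split between replicate 1 and the others. Pck2, a mitochondrial enzyme of gluconeogenesis, was higher in each pair, by 1.12, 1.05 and 1.27, at 6.01, 18.2 and 20.1 FPKM with the shRNA against 2.22, 8.27 and 7.74 FPKM with the empty vector.

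Of 24 activity-induced transcription factors, which neurons raise when they fire, 8 rose in pairs 2 and 3 and 1 fell. These are 33.3% and 4.17%, against 4.89% and 7.55% over all genes. The listed genes are short (median 4.33 kb), and in the shortest of 4 equal groups of genes by length 8.72% were called higher. The list's median over 3 pairs was 0.14, and 0.05 after correction for gene length, described below. Fos measured 24.9, 13.5 and 12.8 FPKM in the control libraries and 32.1, 20.6 and 15.7 FPKM in the knockdown libraries, higher in each pair by 0.35, 0.58 and 0.28, with 0.43 ± 0.11 (SE; limma adjusted p = 0.0347) in pairs 2 and 3, although the groups overlapped. Junb measured 20.4, 25.8 and 19.8 FPKM with the shRNA against 8.34, 16.7 and 13 FPKM with the empty vector and Jun measured 94.6, 78.5 and 62.1 FPKM in the control libraries and 97.7, 112 and 104 FPKM in the knockdown libraries, each above control without overlap. Nr4a3, a nuclear receptor, was the member that fell, at 62, 67.3 and 78.5 FPKM with the shRNA against 81, 109 and 114 FPKM with the empty vector. Egr1 measured 120.2, 22.9 and 17 FPKM in the control libraries and 55.3, 41 and 20.7 FPKM in the knockdown libraries, higher by 0.54 in the mean of pairs 2 and 3 and lower in pair 1, where the control library was highest. Crem, Ier2 and Cebpb rose by 0.74, 0.41 and 0.38 in the same fit.

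Among 28 activity-induced effectors, 4 rose (14.3%, against 4.89% over all genes) and 1 fell (3.57%, against 7.55%). This list is also of short genes (median 6.41 kb), and its median went from 0.13 to 0.06 after correction for gene length. Bdnf, the neurotrophin, measured 8.6, 7.4 and 6.09 FPKM in the control libraries and 5.25, 9.12 and 11 FPKM in the knockdown libraries, a rise of 0.51 ± 0.13 (SE; limma adjusted p = 0.0392) in pairs 2 and 3 with the reverse order in replicate 1. Tac1, the substance P precursor, measured 7.03, 13.8 and 18.7 FPKM with the shRNA against 6.24, 9.25 and 9.77 FPKM with the empty vector. Scg2, a granin, rose by 0.54, and Vgf is described above. Rgs2, a regulator of G protein signalling, fell, at 24.2, 18.7 and 18.3 FPKM in the control libraries and 15.3, 12.3 and 11.6 FPKM in the knockdown libraries, with pair differences of -0.63, -0.57 and -0.62. Arc measured 3.69, 1.58 and 1.27 FPKM with the shRNA against 1.46, 1.11 and 1.17 FPKM with the empty vector, near the detection level, and was not called. Homer1, a postsynaptic scaffold, measured 35.7, 34.9 and 36.1 FPKM in the control libraries and 23.8, 34.1 and 33.6 FPKM in the knockdown libraries, below control without overlap, with most of the gap in replicate 1.

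Of 58 tested genes for cytosolic ribosomal proteins, 27 rose in pairs 2 and 3 (4.89% over all genes) and 0 fell, and 29 were higher in all 3 pairs (18.8% over all genes). Without overlap 2 were above control and 1 below. The list's median difference was 0.33, and by pair 0.23, 0.21 and 0.50. In the shortest of 4 equal groups of genes by length 8.72% were called higher, and this list has a median length of 2.92 kb. Rpl30 measured 8.38, 17.2 and 19.4 FPKM in the control libraries and 20.2, 23.1 and 58.3 FPKM in the knockdown libraries. Rps23 measured 101, 201 and 461 FPKM with the shRNA against 54.2, 172 and 164 FPKM with the empty vector. In both, KD_TTX replicate 3 was far above every other library, and the smallest difference was in replicate 2. Rpl5 measured 154, 174 and 176 FPKM in the control libraries and 200.3, 208 and 245 FPKM in the knockdown libraries, a smaller and more even rise. Many of these genes are short and have near-identical processed copies in the genome, so their values depend on how shared reads were counted, which is not given in the sources used here.

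Of the 73 tested subunits of oxidative phosphorylation, 10 rose (13.7%, against 4.89% over all genes) and 0 fell in pairs 2 and 3. Their median was 0.18, and 32 were higher in all 3 pairs (43.8%, against 18.8% over all genes). These genes are short (median 7.17 kb), and in the shortest of 4 equal groups of genes by length 8.72% were called higher. After correction for gene length, described below, the list's median was 0.11. Without overlap 1 was above control and 1 below. Ndufa12, a subunit of complex I, measured 8.4, 17.8 and 25.3 FPKM in the control libraries and 18.9, 23.1 and 51.4 FPKM in the knockdown libraries. Cox7c, of complex IV, measured 204, 341 and 582 FPKM with the shRNA against 129, 279.5 and 334 FPKM with the empty vector. Sec61g, a short gene for a subunit of the translocon, had its largest value in the same library, at 3.55, 5.92 and 5.47 FPKM in the control libraries and 2.97, 8.49 and 47.7 FPKM in the knockdown libraries. KD_TTX replicate 3 was again the highest library in these examples.

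The median of glutamatergic neuron markers was below 0 in every pair. Of 17 tested markers, 11 fell in pairs 2 and 3 (7.55% over all genes were called lower) and 0 rose, and 7 were below control without overlap (7.91% over all genes). The list's median difference was -0.43, with -0.46, -0.42 and -0.45 by pair. Neurod6, a bHLH factor of pyramidal neurons, measured 443, 366 and 397 FPKM in the control libraries and 252, 221 and 248 FPKM in the knockdown libraries. Neurod1, its relative, measured 136, 135 and 153 FPKM with the shRNA against 224, 206 and 191 FPKM with the empty vector. Bcl11a and Bcl11b, zinc finger factors of cortical and hippocampal neurons, measured 98.5, 112 and 114 FPKM in the control libraries and 85.2, 73.5 and 70.0 FPKM in the knockdown libraries for the former and 37.2, 34.1 and 37 FPKM in the control libraries and 25.3, 26.6 and 29.2 FPKM in the knockdown libraries for the latter. In all of these genes every knockdown library was below every control library.

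Zbtb20, a factor of hippocampal pyramidal identity, measured 55, 44.5 and 46.7 FPKM in the control libraries and 38.5, 33.1 and 27.5 FPKM in the knockdown libraries, a mean difference of -0.58 ± 0.10 (SE; limma adjusted p = 0.012) in pairs 2 and 3. It lay below control without overlap. Slc17a7, the vesicular glutamate transporter VGLUT1, measured 115, 78 and 65.2 FPKM with the shRNA against 83.6, 131 and 131 FPKM with the empty vector, and it fell in pairs 2 and 3 but was higher in pair 1. Neurod2 had the same reversal in replicate 1, at 19.1, 68 and 86.2 FPKM in the control libraries and 48.6, 48.5 and 59.9 FPKM in the knockdown libraries. Summed over the list, levels were 1659 to 1882 FPKM in the control libraries and 1165 to 1402 FPKM in the knockdown libraries, without overlap. In a bulk culture fewer cells of a type and less RNA per cell cannot be told apart.

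Markers of other cell types were also called, in small counts. Over all genes 4.89% were called higher and 7.55% lower. Of 17 GABAergic markers, 1 rose and 2 fell (5.88% and 11.8%), and the summed level was 364 to 518 FPKM in the control libraries and 358 to 489 FPKM in the knockdown libraries. The median of this list by pair was -0.10, 0.08 and -0.16. Sst, the somatostatin precursor, measured 98.2, 42.1 and 39.9 FPKM in the control libraries and 57.3, 61.6 and 71.3 FPKM in the knockdown libraries, and Reln measured 23.7, 29.8 and 30.5 FPKM with the shRNA against 34, 39.2 and 45.7 FPKM with the empty vector. Gad2 measured 6.67, 6.36 and 5.63 FPKM with the shRNA against 12.5, 7.08 and 9.41 FPKM with the empty vector and was not called. Gad2 and Reln were the 2 GABAergic markers below control without overlap (11.8%, against 7.91% over all genes), and 0 were above. The 16 astrocyte markers summed to 4509 to 8789 FPKM in the control libraries and 4088 to 7582 FPKM in the knockdown libraries, with 0 called higher and 2 lower (12.5%). Those called were Aldh1l1 and Aldoc, with means of -0.69 and -0.50. The 18 microglia markers summed to 342 to 1141 FPKM in the control libraries and 279.6 to 931 FPKM in the knockdown libraries, with 2 called higher and 1 lower (11.1% and 5.56%). Trem2 and Tyrobp, a microglial receptor and its adaptor, rose by 0.56 and 0.33, and Lyz2, a lysozyme, fell, with a mean of -0.89. The 13 vascular and fibroblast markers, with 1 called lower (7.69%), summed to 739 to 1920.0 FPKM in the control libraries and 612 to 1833 FPKM in the knockdown libraries. Of these lists of other cell types, the share called lower was highest among the 8 tested oligodendrocyte lineage markers, where 3 fell (37.5%), and these summed to 99.1 to 138 FPKM in the control libraries and 96.4 to 119.8 FPKM in the knockdown libraries. Olig1 and Olig2 fell in pairs 2 and 3, with means of -0.75 and -0.80, and were higher in pair 1. The counts cover tested members only. Of the markers listed, 9 of 17 for the oligodendrocyte lineage (Sox10, Pdgfra and Mag among them), 8 of 21 vascular, 2 of 20 microglia and 2 of 18 astrocyte markers were not tested. Tested markers had to reach 1 FPKM in 3 of 12 libraries, and every gene of the deposited table was at 1 FPKM or more in Ctrl_TTX replicate 1, so the levels of the other markers were not analysed here. The part of cell makeup in the differences above was not tested.

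**Figure D3:**
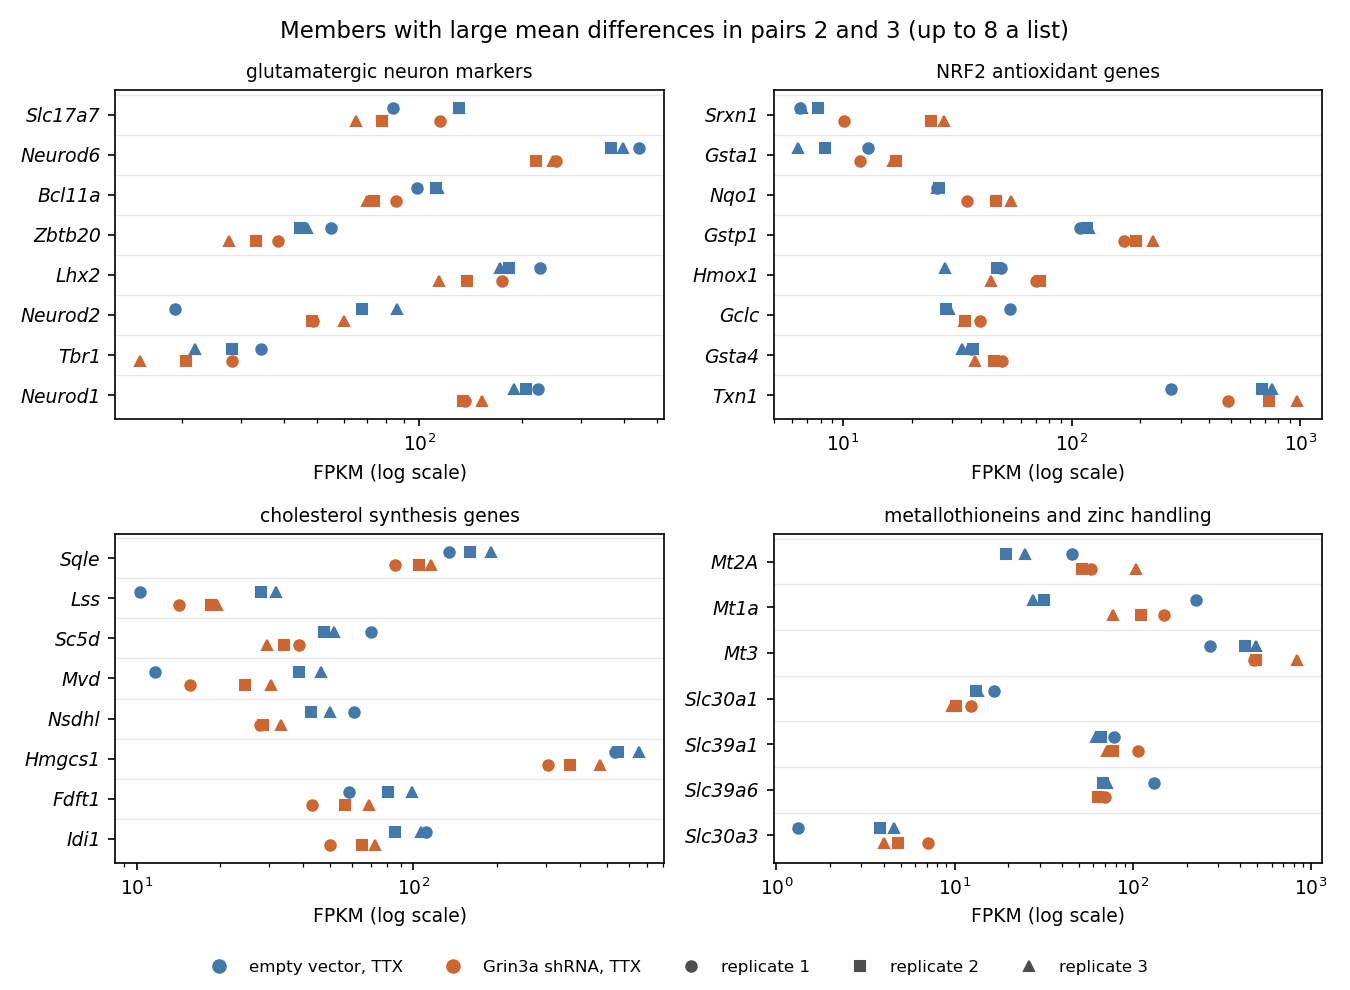
FPKM on a log axis in each library for up to 8 members of 4 gene lists, chosen among the genes reported here for their mean difference in pairs 2 and 3. Blue is the empty vector, orange the Grin3a shRNA, and shapes give the replicate; the orange points lie left of the blue ones for most glutamatergic and cholesterol genes, and in Lss and Mvd the control of replicate 1 is far below the other control libraries.

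Of 26 tested genes of cholesterol synthesis, 13 fell in pairs 2 and 3 (50%, against 7.55% over all genes) and 0 rose. In all 3 pairs 11 were lower (42.3%, against 21.6%) and 0 higher, and 5 were below control without overlap (19.2%, against 7.91%). Sqle, squalene epoxidase, measured 134, 159 and 191 FPKM in the control libraries and 85.8, 105 and 116 FPKM in the knockdown libraries. Hmgcs1, which makes the precursor of the mevalonate pathway, measured 306, 368 and 472 FPKM with the shRNA against 537, 548 and 652 FPKM with the empty vector. Nsdhl and Sc5d, of the later sterol steps, measured 61.1, 42.5 and 50.0 FPKM in the control libraries and 28, 28.7 and 33.2 FPKM in the knockdown libraries for Nsdhl and 70.1, 47.4 and 51.6 FPKM in the control libraries and 38.5, 34.1 and 29.5 FPKM in the knockdown libraries for Sc5d. All these groups were apart. Mvd, mevalonate diphosphate decarboxylase, measured 11.7, 38.6 and 46.5 FPKM in the control libraries and 15.6, 24.5 and 30.6 FPKM in the knockdown libraries, a mean difference of -0.61 ± 0.09 (SE; limma adjusted p = 0.00595) in pairs 2 and 3 with the reverse order in replicate 1.

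Of 22 tested glycolysis and hypoxia genes, 12 fell in pairs 2 and 3 (54.5%, against 7.55% over all genes) and 0 rose. In pair 1 the list's median was 0.13 against -0.43 and -0.26 in pairs 2 and 3. Pgam1, phosphoglycerate mutase, measured 54.8, 138 and 133 FPKM in the control libraries and 58.8, 67.1 and 71.1 FPKM in the knockdown libraries. Ldha, lactate dehydrogenase A, measured 10.7, 16.5 and 23.4 FPKM with the shRNA against 5.82, 41.3 and 38.4 FPKM with the empty vector. Hk2, hexokinase 2, measured 3.11, 9.76 and 9.29 FPKM in the control libraries and 3.81, 4.06 and 6.76 FPKM in the knockdown libraries. In all of them Ctrl_TTX replicate 1 was as low as the knockdown libraries or lower. Pkm, Pfkl, Pdk1, Slc2a1 and Vegfa fell, with means of -0.57, -0.50, -0.46, -0.46 and -0.41. Pfkp, the platelet-type phosphofructokinase, went the other way at 47, 48.9 and 40.2 FPKM in the control libraries and 50.8, 53.3 and 53.3 FPKM in the knockdown libraries. It was the 1 member whose groups did not overlap, and was not called.

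Among 30 axon guidance genes, 11 fell in pairs 2 and 3 (36.7%, against 7.55% over all genes) and 0 rose, and 4 were below control without overlap (13.3%, against 7.91%). These genes are long (median 149 kb), and in the longest of 4 equal groups of genes by length 10.7% were called lower and 14% were below control without overlap. Sema3c, a secreted semaphorin, measured 95.7, 101 and 136 FPKM in the control libraries and 45.8, 57.8 and 79.7 FPKM in the knockdown libraries, with pair differences of -1.05, -0.80 and -0.77. Robo1, a Slit receptor, measured 39.6, 32.2 and 31.4 FPKM with the shRNA against 57.8, 52 and 51.2 FPKM with the empty vector. Plxna2, a semaphorin receptor, measured 90.9, 101 and 114 FPKM in the control libraries and 64.5, 72 and 66.4 FPKM in the knockdown libraries. Dcc, the netrin receptor, and Nrp2, neuropilin 2, fell, with means of -0.55 and -0.61. Sema3c, Robo1 and Plxna2 differed by similar amounts in each replicate. The list as a whole did not, with a median by pair of 0.20, -0.13 and -0.31. Its median over 3 pairs was -0.06, and it turned to 0.02 after correction for gene length, described below.

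Of 34 cytoskeleton and growth cone genes, 11 fell in pairs 2 and 3 (32.4%, against 7.55% over all genes) and 0 rose, and 15 were lower in all 3 pairs (21.6% over all genes). Crmp1, a collapsin response mediator in semaphorin signalling, measured 568, 698 and 744 FPKM in the control libraries and 390.0, 361 and 398 FPKM in the knockdown libraries. Ina, a neuronal intermediate filament, measured 88.9, 77.4 and 69.9 FPKM with the shRNA against 143, 106 and 113 FPKM with the empty vector. Map1b, a microtubule protein of growing axons, measured 1407, 717 and 726 FPKM in the control libraries and 631, 564 and 550.3 FPKM in the knockdown libraries. All had groups apart, although for Map1b pair 1 was the largest difference. Tubb3, neuronal beta-tubulin, measured 617, 685 and 868 FPKM with the shRNA against 429.6, 1119.5 and 1187 FPKM with the empty vector and Actb measured 1918, 3167 and 3127 FPKM in the control libraries and 2604, 2174 and 2199 FPKM in the knockdown libraries, both lower in pairs 2 and 3 and higher in pair 1.

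Of 37 synaptic vesicle and release genes, 9 fell and 1 rose. These are 24.3% and 2.7%, against 7.55% and 4.89% over all genes. Without overlap only 1 was below control (2.7%, against 7.91% over all genes) and 1 above. In all 3 pairs 18 were lower (48.6%, against 21.6%). Syt1 and Syn1, the calcium sensor and a vesicle phosphoprotein, fell, with means of -0.41 and -0.46 in pairs 2 and 3, with control of replicate 1 at over 2 times the others. Syp, synaptophysin, fell, with a mean of -0.36, but was higher in pair 1. Napa, alpha-SNAP, was the member that rose, at 51.5, 67.8 and 71.6 FPKM in the control libraries and 77.8, 91.1 and 97.9 FPKM in the knockdown libraries, while its relative Napb measured 61.3, 59.5 and 55.8 FPKM with the shRNA against 69.3, 79.6 and 84 FPKM with the empty vector and fell. Of 33 synaptic adhesion molecules 6 fell (18.2%), and of 24 postsynaptic scaffolds 3 fell (12.5%), with 0 rising in both lists. For the scaffolds the share that fell is not far from the 7.55% over all genes or the 10.7% in the longest genes. Of the adhesion molecules 1 was below control without overlap (3.03%, against 7.91% over all genes), and 13 were lower in all 3 pairs (39.4%, against 21.6%). Efnb3 and Shank1 fell, with means of -0.69 and -0.45.

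AMPA receptor genes had 5 of 16 members falling (31.2%, against 7.55% over all genes) and 1 rising (6.25%, against 4.89%). The list's median by pair was 0.19, -0.14 and -0.37, so pair 1 went the other way. Over 3 pairs it was -0.10, and -0.05 after correction for gene length, described below. Only 1 member was below control without overlap (6.25%, against 7.91% over all genes). Gria2, the subunit that blocks calcium entry, measured 226, 131 and 136 FPKM in the control libraries and 111, 98.2 and 89 FPKM in the knockdown libraries, below control without overlap. Cacng2, the auxiliary protein stargazin, measured 32.1, 20.2 and 19.5 FPKM with the shRNA against 62.6, 30.9 and 31.6 FPKM with the empty vector, and Cacng3 rose by 0.56. In the GABA-A receptor list 1 of 13 fell (7.69%, close to the share over all genes), Gabrb1, with a mean of -0.51. Below control without overlap were 3 of the 13 (23.1%, against 7.91% over all genes), and 8 were lower in all 3 pairs (61.5%, against 21.6%). The list's median by pair was -0.47, -0.04 and -0.09, so most of it lay in pair 1. Among 37 potassium and HCN channels, 6 fell (16.2%) and 0 rose. Kcnk9, a leak channel, measured 3.56, 11.2 and 15.4 FPKM in the control libraries and 7.69, 5.89 and 6.78 FPKM in the knockdown libraries, lower in pairs 2 and 3 only. Kcnq3, of the M current, measured 12.6, 15.2 and 12.8 FPKM with the shRNA against 15.3, 19.4 and 19.7 FPKM with the empty vector. Chrna7, the alpha7 nicotinic subunit, was named after its values were seen and measured 7.51, 24.4 and 30.8 FPKM in the control libraries and 14, 10.7 and 14.5 FPKM in the knockdown libraries, a mean difference of -1.08 ± 0.09 (SE; limma adjusted p = 0.00143) with the reverse order in replicate 1. Mdga1, an adhesion protein that restrains neuroligins, measured 43.6, 32.3 and 38.2 FPKM with the shRNA against 43.2, 65.3 and 77.6 FPKM with the empty vector (limma adjusted p = 0.00123 in pairs 2 and 3) and was also named after its values were seen.

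Among MEF2 factors, class IIa histone deacetylases and CREB coactivators, 3 of 13 fell (23.1%, against 7.55% over all genes) and 0 rose, and 10 were lower in all 3 pairs (76.9%, against 21.6%). Mef2a, an activity-regulated factor, measured 64.4, 35.4 and 36.9 FPKM in the control libraries and 30.7, 30.0 and 24.2 FPKM in the knockdown libraries. Hdac9, a MEF2 corepressor, measured 27, 23.9 and 20.3 FPKM with the shRNA against 31.9, 29.9 and 28.3 FPKM with the empty vector. Crtc1, a CREB coactivator, fell, with a mean of -0.46, but its groups overlapped. Camk4, a nuclear calcium-dependent kinase, measured 16.2, 17.2 and 18.2 FPKM in the control libraries and 11.8, 12.2 and 11.1 FPKM in the knockdown libraries, apart from control, and was among 3 of 26 calcium-dependent kinases and phosphatases that fell (11.5%), with 1 that rose.

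**Figure D4:**
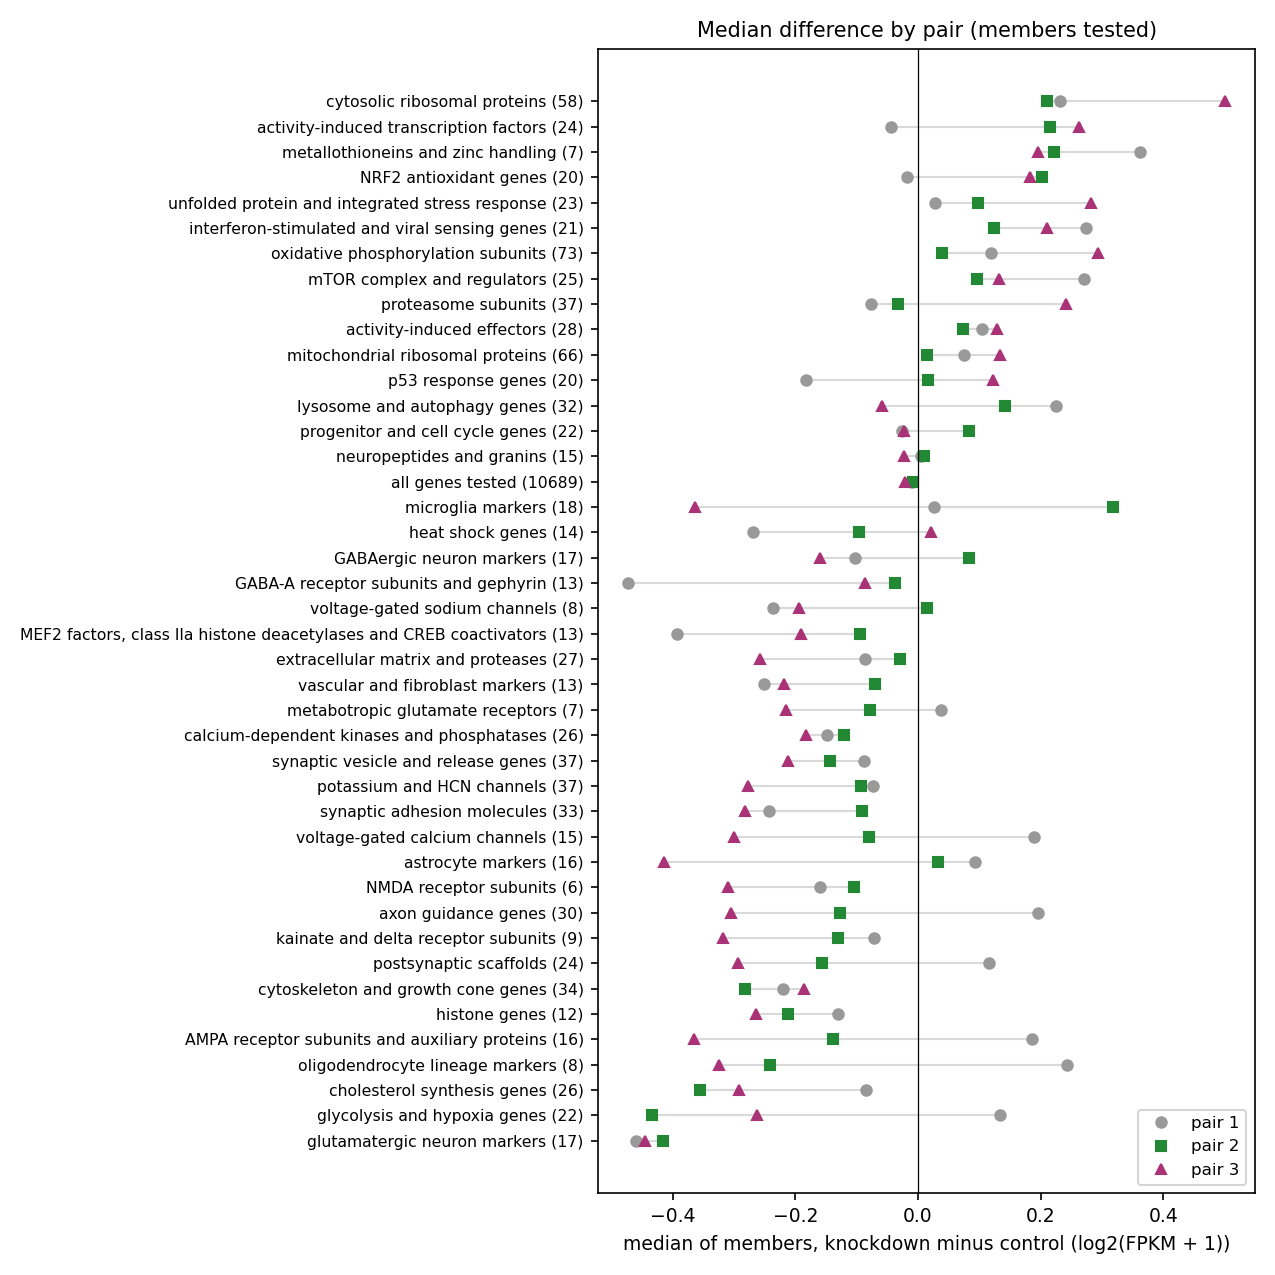
Median difference of each gene list, knockdown minus control on the log2(FPKM + 1) scale, with 1 marker for each same-numbered pair and the number of members tested in parentheses. The 3 markers of glutamatergic neuron markers lie together below -0.4, those of cytosolic ribosomal proteins all lie above 0.2, and lists such as glycolysis have pair 1 on the other side of 0.

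The authors marked 36 higher genes (0.336% of 10729) and 196 lower genes (1.83%) at q below 0.05 in the authors' deposited table. Of the 195 lower genes tested here, Ctrl_TTX replicate 1 was the highest of the 6 libraries at 178. Their median differences by pair were -1.25, -0.31 and -0.47. Of them, 84 were below control without overlap (7.91% over all genes), and 145 were under 1.5-fold in the mean of pairs 2 and 3. Plagl1, a zinc finger factor, is listed at -1.46 with q = 0.00102 in the authors' deposited table, and its FPKM values here were 121, 13.1 and 10.9 FPKM in the control libraries and 26.1, 15.7 and 10.9 FPKM in the knockdown libraries. Zic2, also a zinc finger factor, measured 31.2, 17.1 and 15.4 FPKM with the shRNA against 132, 14.9 and 16.3 FPKM with the empty vector. In both the difference lay in replicate 1, and without it the mean was 0.13 for Plagl1 and 0.06 for Zic2. Ube2d1, a ubiquitin-conjugating enzyme, had pair differences of -2.19, -0.31 and -0.30.

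Other genes that the authors marked lower also differed outside replicate 1, and 106 of the 195 were also called in pairs 2 and 3 (7.55% over all genes). The authors' q-values compare the same TTX libraries, so such agreement is no separate support. Parm1 measured 9.13, 3.9 and 2.79 FPKM with the shRNA against 29.9, 7.61 and 6.32 FPKM with the empty vector (-0.88 ± 0.12 SE, limma adjusted p = 0.00498 in pairs 2 and 3). Dusp18, a phosphatase, measured 141, 37.8 and 40.2 FPKM in the control libraries and 46.1, 23.2 and 20.3 FPKM in the knockdown libraries. In both, the knockdown library was the lower of every pair, although replicate 1 stood at a higher level in both groups. The 36 higher genes had median differences of 0.64, 0.62 and 1.09 by pair. Of them, 20 were above control without overlap (3.94% over all genes) and 35 were also called in pairs 2 and 3 (4.89% over all genes). Ifi27l2b, of an interferon-induced family, has the largest change of them at 1.99 with q = 0.00322 in the authors' deposited table, and measured 2.46, 22.1 and 46.6 FPKM with the shRNA against 1.47, 9.42 and 6.99 FPKM with the empty vector.

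Gene length on the genome moved with these differences. The rank correlation of the log2 difference with length across genes was -0.318, and by pair -0.284, -0.0813 and -0.24. Genes were split into 4 equal groups by length. In the shortest group (median 4.85 kb) the median difference was 0.10, and 3.74% were below control without overlap. In the longest group (median 118 kb) the median was -0.12, and 14% were below control without overlap. Ribosomal protein genes (median 2.92 kb) and axon guidance genes (median 149 kb) are lists at the ends of this range. After correction for the trend in each library, the median of cytosolic ribosomal proteins was 0.21 and that of glutamatergic markers -0.41. Of the 421 genes above control without overlap, 321 stayed so after it, and of the 845 below, 565 did. Mt2A, Jun, Angptl4 and Ebi3 were among those above that did not, and Grin2a, Sema3c and Homer1 among those below. The part of RNA quality or library preparation in this trend was not tested.

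**Figure D5:**
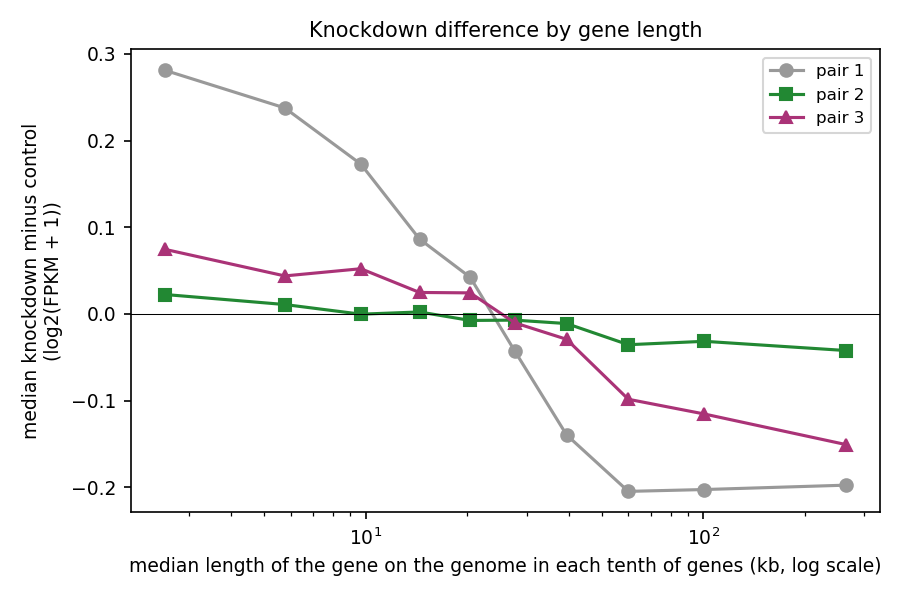
Median difference, knockdown minus control on the log2(FPKM + 1) scale, in 10 equal groups of genes ordered by length on the genome (x axis, kb, log scale), with 1 line for each pair. All 3 lines run from above 0 in the shortest genes to below 0 in the longest; pair 1 spans the widest range, and pair 2 stays within 0.05 of 0.

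After TTX withdrawal for 6 h the same knockdown was measured in separate libraries, so the values can be set side by side. Without overlap, 1154 genes (10.8%) were higher and 965 (9.03%) lower with the shRNA. Of the 421 genes above control in TTX, 50 (11.9%) were also above control after withdrawal and 47 were below. Of the 845 below control in TTX, 74 (8.76%) were also below and 101 were above. The difference between the knockdown effects in TTX and after withdrawal was called at 0 genes (0%), with a smallest limma adjusted p of 0.492 and 1050 genes at an unadjusted p below 0.05.

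Grin3a itself measured 13.8, 19.8 and 4.88 FPKM with the empty vector and 5.22, 3.32 and 2.5 FPKM with the shRNA after withdrawal, where the lowest control library overlapped the knockdown group. RGD1311558 measured 53.9, 81.4 and 49.8 FPKM with the empty vector and 39.3, 25.7 and 25.7 FPKM with the shRNA, again without overlap. Pcyox1 was again below control without overlap, with a log2 difference of -1.04, and so were Ugcg, Nkap and Pcnp. Dusp18, whose groups overlapped in TTX, was below control without overlap there. Pgam1 measured 99.2, 97.3 and 118 FPKM with the empty vector and 43.6, 25.4 and 37.6 FPKM with the shRNA and Ldha measured 33.6, 39.2 and 23.6 FPKM with the empty vector and 12.1, 14.3 and 11.2 FPKM with the shRNA. Both were lower in every knockdown library there. Srxn1, Mt2A and Nqo1 differed by -0.17, -0.56 and -0.30 after withdrawal, with groups that overlapped. The glutamatergic list had a median of 0.16 there, where 2 members were above and 1 below control without overlap. That the effects differ between the conditions is not shown by the test above.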

How the data were processed

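Poly(A) RNA of cultured rat neurons was sequenced with a stranded kit and 50-base single-end reads, per the labels' protocols. Per the submitters' processing notes, Trimmomatic, TopHat2, Cufflinks and Cuffdiff were used with the build rn5. Versions and counting rules are not given in the sources used here. The authors deposited FPKM values per library, which hold no read depth, and, per the file headers, a log2 fold change, a p-value and a q-value per gene for each comparison. Every gene was at 1 FPKM or more in Ctrl_TTX replicate 1, and whether the genes were selected on that library is not given in the sources used here.

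From these, log2(FPKM + 1) was fitted with limma 3.58.1 (R 4.3.3, eBayes with trend) for genes at 1 FPKM or more in at least 3 of 12 libraries, with p-values adjusted by Benjamini-Hochberg over all genes and a threshold of 0.05. Of 10730 genes, 18 symbols turned into dates were resolved by transcript, 1 gene was left out because its library values did not match the authors' group value, and 40 did not pass the filter. The main fit used all 12 libraries in 4 groups (8 residual degrees of freedom), a second fit the 6 TTX libraries with pairs (2 residual degrees of freedom). The main and second fits were run on simulated data with noise independent between genes and no outlying library or trend with gene length. The fit of pairs 2 and 3 alone was not run on simulated data. For replicates 1, 2 and 3, the deviations of control and knockdown libraries from their own group mean correlated at 0.617, 0.436 and 0.667. Numbers were therefore taken as pairs, although the labels do not state a pairing. Unmatched libraries gave -0.639 to 0.324, the highest for control replicate 2 with knockdown replicate 3. Deviations within a group sum to 0, so an outlying replicate 1 moves replicates 2 and 3 alike. The check therefore says little on how replicates 2 and 3 pair. Correction for gene length removed each library's loess trend against log10 locus span. Alternatives were pseudocount, filters, scaling, variance model, pairing, length correction and leaving out libraries. Named genes were the largest differences without overlap (12 per direction, mean of at least 5 FPKM in 1 group), the authors' largest marked changes (10 per direction, at least 2 FPKM), up to 4 members per list without overlap, and Grin3a, its relatives, Fos, Arc, Bdnf and Homer1. Other list members, and Chrna7, Mdga1, Mgp, Spp1 and Car3, which were among the largest differences in pairs 2 and 3, were named after their values were seen. Some genes that these rules name are not reported here, although counts over lists include them. The members and the 41 gene lists were chosen with earlier results of these data known. Promoters were taken from RefSeq (GRCr8) by symbol.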

Additional observations from a re-analysis of the deposited data

How the results depend on the processing

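Calls depended on which libraries were used. With same-numbered pairs, the counts were 523 higher and 807 lower without replicate 1, 16 and 12 without replicate 2, and 0 and 1 without replicate 3, against 0 and 0 with all 3 pairs. The count in pairs 2 and 3 moved to 270 higher and 424 lower with the correction for gene length and the replicate block, to 279 and 468 without a trend in the variance, and to 0 and 0 with no replicate block. Other pseudocounts, filters, scalings and a robust variance kept it within 1.5 times. In the fit over 12 libraries, and in the difference of knockdown effects between TTX and withdrawal, the limma count was 0 in both directions under each alternative run, the replicate block included. Genes without overlap numbered 821 to 2251 higher and 1406 to 3020 lower when 1 replicate number was left out, a rise that follows from comparing 2 against 2 libraries.

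Leaving out 1 library at a time turned the direction of 7 named genes, whose log2 differences then ranged over -1.24 to 0.440 for Plagl1, -1.17 to 0.360 for Zic2, -1.26 to 0.0576 for Ldha, -0.867 to 0.0548 for Kcnk9, -0.120 to 2.30 for Mgp, -0.938 to 2.26 for Spp1 and -0.0619 to 0.408 for Bdnf. Leaving out a replicate number from both groups turned Plagl1 to 0.125 without replicate 1, Zic2 to 0.0594 without replicate 1, Ldha to 0.0408 without replicate 2, Kcnk9 to 0.0524 without replicate 3, Car3 to 0.0502 without replicate 3, Spp1 to -0.123 without replicate 2 and Bdnf to -0.175 without replicate 3. The cause was not tested.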

Other observations

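Over all genes 4.89% were called higher and 7.55% lower in pairs 2 and 3, and 18.8% and 21.6% were higher and lower in all 3 pairs. Of 32 lysosome and autophagy genes, 0 were called higher and 1 lower (3.12%), Ulk1, an autophagy kinase, with a mean of -0.33. In all 3 pairs 9 were higher (28.1%) and 2 lower (6.25%). Npc2 and Neu1, a sterol carrier and a sialidase of lysosomes, were above control without overlap at 207, 173 and 153 FPKM with the shRNA against 141, 152 and 139 FPKM with the empty vector for Npc2 and 12.7, 12.6 and 12.6 FPKM with the shRNA against 10.4, 10.8 and 11 FPKM with the empty vector for Neu1. Of 37 genes with proteasome subunit symbols, 4 rose in pairs 2 and 3 (10.8%) and 0 fell, among them Psmb10, an immunoproteasome subunit, at 9.6, 18.6 and 15.3 FPKM in the control libraries and 19.6, 23.2 and 27.1 FPKM in the knockdown libraries. Without overlap 1 was above control and 3 were below (2.7% and 8.11%, against 3.94% and 7.91% over all genes). Those below were Psma4, at 159, 159.8 and 175 FPKM with the shRNA against 387, 197 and 209.6 FPKM with the empty vector, Psmd1, and Psmc3ip, which the symbol pattern took in although it encodes a recombination protein. Of 21 interferon-stimulated and viral sensing genes, 2 were called higher (9.52%) and 0 lower, Ifi27 and Bst2, with means of 0.43 and 0.45. In all 3 pairs 10 were higher (47.6%) and 1 lower (4.76%). Isg15, above control without overlap but not called (limma adjusted p = 0.109), measured 3.09, 3.14 and 4.49 FPKM with the shRNA against 1.05, 2.58 and 2.85 FPKM with the empty vector. Of 12 histone genes 2 fell (16.7%), H2afx and H2afy2, with means of -0.34 and -0.30. Of 20 p53 response genes 2 rose (10%), Sesn2 and Bbc3, with means of 0.62 and 0.45. Of 14 heat shock genes 0 were called. Of 66 mitochondrial ribosomal proteins 3 rose and 1 fell (4.55% and 1.52%), and Mrps10 measured 109, 60.3 and 63.4 FPKM in the control libraries and 47.1, 48.8 and 41.8 FPKM in the knockdown libraries. Of 25 mTOR complex members and regulators, 4 rose and 1 fell (16% and 4%), and Sesn2, a stress-induced inhibitor of mTORC1, measured 15.3, 50.6 and 62.6 FPKM with the shRNA against 18.2, 37.1 and 35.2 FPKM with the empty vector.

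Among 27 genes of extracellular matrix and proteases, 4 rose and 4 fell in pairs 2 and 3, each 14.8% (4.89% and 7.55% over all genes). Hapln1, a link protein of the perineuronal matrix, measured 7.45, 7.67 and 6.96 FPKM in the control libraries and 3.79, 4.79 and 3.1 FPKM in the knockdown libraries, below control without overlap. Spp1, osteopontin, and Mgp, matrix Gla protein, rose in pairs 2 and 3 (limma adjusted p = 0.00595 and 0.000588), although their level differed more between replicates than between groups. Spp1 measured 104, 27.5 and 3.55 FPKM with the shRNA against 217, 8.6 and 1.6 FPKM with the empty vector, and Mgp measured 564, 60.7 and 18.7 FPKM in the control libraries and 670.0, 148 and 49.6 FPKM in the knockdown libraries. Lgals3 and Lgals1, galectins, rose in pairs 2 and 3 by 0.68 and 0.78, and in pair 1 differed by 0.06 and -0.05. Car3, a carbonic anhydrase, measured 17.2, 16.7 and 24.5 FPKM in the control libraries and 34.4, 8.75 and 9.98 FPKM in the knockdown libraries, a mean difference of -1.04 ± 0.11 (SE; limma adjusted p = 0.00296) in pairs 2 and 3 and the reverse in pair 1.

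Of 15 neuropeptides and granins, 5 rose and 2 fell in pairs 2 and 3 (33.3% and 13.3%, against 4.89% and 7.55% over all genes). Those that fell were Cck, cholecystokinin, with a mean of -0.48, and Pcsk2, a prohormone convertase, with a mean of -0.47. Of 9 kainate and delta receptor genes, 2 fell (22.2%), among them Grik2, at 30.9, 27.4 and 26.5 FPKM with the shRNA against 38.5, 34.3 and 38.6 FPKM with the empty vector. Of 15 voltage-gated calcium channel genes, 2 fell (13.3%) and 0 rose. In the lists of 7 metabotropic glutamate receptors and 8 voltage-gated sodium channels, 0 were called by limma in pairs 2 and 3, and 0 had groups without overlap. Of 22 progenitor and cell cycle genes, 1 rose and 2 fell (4.55% and 9.09%), among them Hes5, a Notch target, with a mean of -0.82.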
